A study of Homo sapiens with 6 samples.

Results

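The genes described here are 44 genes of mitosis and the spindle checkpoint, chosen as a list of names, out of 19775 genes tested in the series. The cells were MDA-MB-231, a long-established line from human triple-negative breast cancer, and RNA was measured after silencing of SDC1, which encodes the cell surface proteoglycan syndecan-1. One group of 3 arrays came from cultures given an siRNA against SDC1, and the other 3 arrays from cultures given a negative control siRNA. Both groups were transfected, the time after transfection is not given in the sources used here, and 1 cell line was used. All 44 genes had at least 1 probe set that the array annotation ties to a single gene, 93 in all, and 42 of the 44 fell in the brightest of 3 coarse brightness classes, the exceptions being SPC24 and INCENP in the middle class. Kinesins and CEP centrosome genes were left out by the rule that chose the members, although CENPE, a kinetochore motor of the kinesin type, is among them.

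A cell enters mitosis when CDK1 bound to A- and B-type cyclins is freed from inhibition by CDC25 phosphatases and the polo and Aurora kinases act with it. The kinetochore then joins each chromosome to spindle microtubules, and the checkpoint proteins MAD2, BUB1, BUBR1, BUB3 and MPS1 hold back CDC20 and the anaphase-promoting complex until all chromosomes are attached. Once the checkpoint is satisfied, securin and cyclin B are destroyed, separase cuts cohesin, and the central spindle and the contractile ring divide the cell. Many of these genes are transcribed together late in the cell cycle, through the DREAM and MuvB complexes, B-MYB and FOXM1, and they serve as proliferation markers in breast cancer.

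Each deposited value is a log2 difference from the 6-array median of its probe set, so arrays can be compared for a gene but levels cannot be read. A change is given as SDC1 siRNA minus control siRNA, with its standard error (SE) from limma, and passed the test at a Benjamini-Hochberg adjusted p below 0.05 over all 19775 genes. Where single probe sets are quoted, the adjustment ran over all 54675 probe sets of the array except the 62 controls. In unsorted cells, a different share of cells in mitosis and a different amount of transcript per cell cannot be told apart. SDC1 itself was at -1.14, -1.16 and -1.43 in the SDC1 siRNA arrays, against 1.13, 1.32 and 1.09 in the control siRNA arrays, which left 18.7% of the control transcript. VIM, CD44, CAV1 and AXL, which mark mesenchymal-like breast cancer lines, lay in the brightest class. Of 5 markers that such cells are expected to lack or to express weakly, PGR and PTPRC lay in the middle class, while ESR1, ERBB2 and PECAM1 reached the brightest class with 3 of 9, 1 of 3 and 1 of 5 probe sets, so the class was not used as a detection call. The poly-A spike-in controls, RNAs added before labelling, parted the arrays into 2 sets that each hold both groups. The spike-in mean ran from 0.35 to 0.60 in SDC1 siRNA replicates 1 and 2 and control replicate 1 (set 1), and from -0.41 to -0.38 in the other 3 arrays (set 2). Changes within set 1 and set 2 are given where a gene is described in full.

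As a group the mitotic genes did not shift in one direction. Of the 44 genes, 8 rose, 13 fell and 23 did not pass the test, and the median change was 0.00 on the log2 scale. The share past the threshold was 47.7%, against 28.2% of all genes tested and 41.5% of the genes in the brightest class, where nearly all members lie. By direction, the backgrounds were 13.0% higher and 15.2% lower over all genes tested, and 18.2% higher and 23.3% lower in the brightest class. Few changes were large: 2 members, PRC1 and CDC25B, reached 1.5-fold, which is 9.52% of the called members against 24.9% of all called genes. The median absolute log2 change was 0.169 for the members, against 0.129 for all genes tested and 0.177 for the brightest class. In 24 of the 44 members (54.5%) every array of one group lay above every array of the other, against 41.8% of all genes and 57.8% of the brightest class. The 24 comprised the 21 genes past the threshold together with PLK4, FOXM1 and NUSAP1. The median change of the members was -0.07 in set 1 and 0.03 in set 2.

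**Figure D1:**
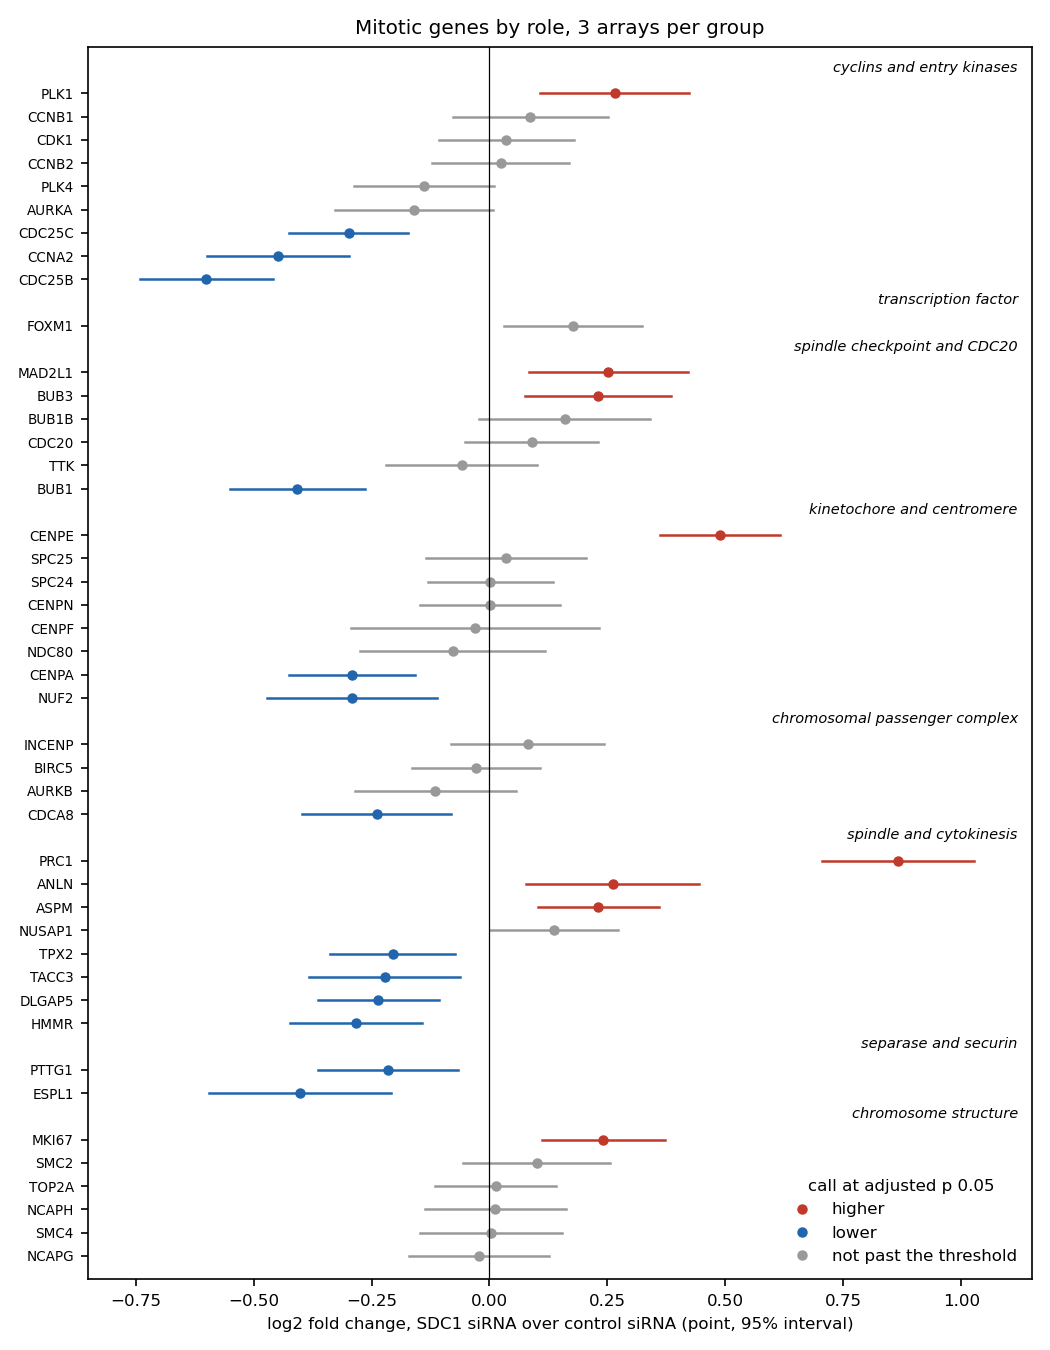
Log2 fold change (x axis, SDC1 siRNA over control siRNA, n = 3 arrays per group) of the 44 mitotic genes, listed by role, with points for the limma estimate and bars for the 95% interval. PRC1 at 0.87 and CENPE at 0.49 lie farthest to the right and CDC25B at -0.60 farthest to the left, and 23 genes in grey did not pass the threshold.

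Most of the member promoters that could be searched hold a short sequence. The genes were not chosen by it, but they were chosen as genes of mitosis, for which the element was already known. The cell cycle genes homology region, or CHR, is the short element through which the DREAM and MuvB complexes bind late cell cycle genes. RefSeq promoter windows of 300 bases (250 before and 50 after the annotated start, GRCh38.p14) were at hand for 38 of the 44 genes and were searched on both strands for TTTGAA and for its variant TTCGAA. The letters were found in 28 of the 38 windows (73.7%), against 13.3% of the 15384 windows of all genes tested. They lay wholly within 50 bases of the start in 23 of the 38 windows (60.5%), against 3.65% of all genes tested. CCAAT, the box bound by NF-Y, was in 26 windows (68.4%, against 36.1%), and both CHR letters and CCAAT were in 20 (52.6%, against 5.43%). The CHR letters were in 6 of 7 windows of members that rose (85.7%), 7 of 12 of members that fell (58.3%) and 15 of 19 of those that did not pass the test (78.9%). A match describes letters in a window and not binding. To set promoters of opposite outcome side by side, those of the 2 members with the largest change in each direction among windows with CHR letters, PRC1 and PLK1, which rose, and BUB1 and ESPL1, which fell, are printed 5′ to 3′ on the gene's strand, with the CHR letters in capitals. They lie at chr15:90994486-90994785 on the minus strand, chr16:23678639-23678938 on the plus strand, chr2:110678014-110678313 on the minus strand and chr12:53268049-53268348 on the plus strand.
PRC1: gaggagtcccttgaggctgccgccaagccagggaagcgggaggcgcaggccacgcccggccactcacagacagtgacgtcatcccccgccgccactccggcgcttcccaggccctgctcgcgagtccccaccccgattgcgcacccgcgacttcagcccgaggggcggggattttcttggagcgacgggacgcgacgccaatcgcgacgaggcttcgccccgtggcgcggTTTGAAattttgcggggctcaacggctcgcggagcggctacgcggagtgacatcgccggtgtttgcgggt
PLK1: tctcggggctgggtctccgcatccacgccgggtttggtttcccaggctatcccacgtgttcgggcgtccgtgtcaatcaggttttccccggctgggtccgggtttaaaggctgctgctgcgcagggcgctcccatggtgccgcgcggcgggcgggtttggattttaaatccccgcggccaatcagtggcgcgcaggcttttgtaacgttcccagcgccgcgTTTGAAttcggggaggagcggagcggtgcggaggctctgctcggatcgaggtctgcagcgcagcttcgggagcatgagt
BUB1: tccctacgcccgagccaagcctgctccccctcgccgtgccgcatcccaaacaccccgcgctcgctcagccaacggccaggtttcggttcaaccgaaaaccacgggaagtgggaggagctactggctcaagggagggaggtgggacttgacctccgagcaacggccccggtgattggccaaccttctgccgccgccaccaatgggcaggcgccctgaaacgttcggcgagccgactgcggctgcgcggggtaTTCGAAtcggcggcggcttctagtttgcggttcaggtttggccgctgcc
ESPL1: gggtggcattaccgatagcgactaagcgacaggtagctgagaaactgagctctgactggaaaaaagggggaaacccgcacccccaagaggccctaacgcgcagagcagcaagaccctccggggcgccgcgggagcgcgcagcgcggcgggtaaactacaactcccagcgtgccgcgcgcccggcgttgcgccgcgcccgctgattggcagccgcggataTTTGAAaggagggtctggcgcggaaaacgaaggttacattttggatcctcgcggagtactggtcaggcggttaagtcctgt
Counted from the annotated start, the first CHR base stood at -20 in PRC1, at -29 in PLK1 and at -31 in ESPL1, and BUB1 carried the TTCGAA variant just after its start. All 4 windows also held CCAAT.

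**Figure D2:**
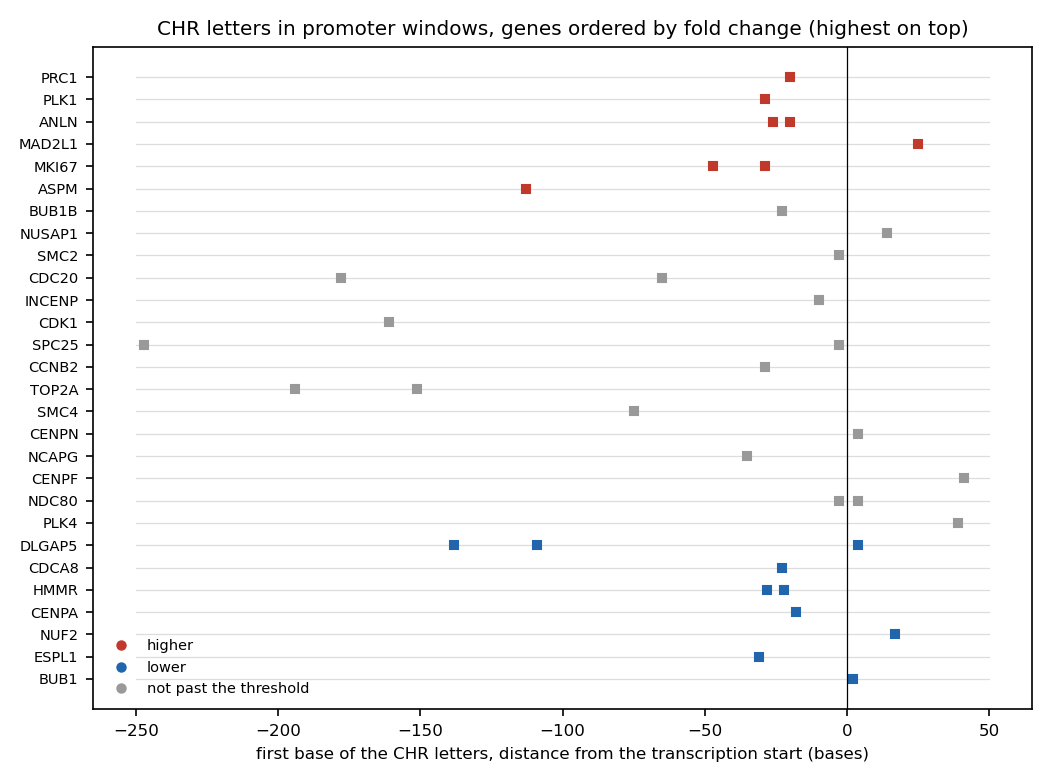
Position of each CHR match (x axis, bases from the transcription start to the first base of the match) in the 28 windows that hold one, with genes ordered by log2 fold change from the highest at the top. Matches near the start occur in genes that rose (red), that fell (blue) and that did not pass the threshold (grey).

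Among the cyclins and kinases of mitotic entry, 3 genes fell, 1 rose and 5 did not pass the test. The share past the threshold was 44.4%, against 28.2% of all genes tested and 41.5% of the brightest class. CDC25B, a phosphatase that activates CDK1 at the onset of mitosis, was at -0.38, -0.25 and -0.35 in the SDC1 siRNA arrays, against 0.31, 0.25 and 0.26 in the control siRNA arrays. The 3 control values lay close together and far above the others, and the change was -0.60 (SE 0.062, adjusted p = 0.000179; -0.63 in set 1 and -0.61 in set 2), which left 66.0% of the control transcript. CCNA2, cyclin A2, which acts in S phase and at mitotic entry, was at -0.25, -0.30 and -0.15 after SDC1 siRNA, against 0.21, 0.16 and 0.27 after control siRNA. It fell by 0.45 (SE 0.066, adjusted p = 0.00116; -0.49 and -0.36 within the sets), and both of its probe sets were lower. CDC25C, the phosphatase that completes CDK1 activation, was at -0.16, -0.14 and -0.11, against 0.17, 0.17 and 0.15 in controls, a narrow spread in either group. Its change was -0.30 (SE 0.055, adjusted p = 0.00392; -0.32 and -0.27 within the sets). A dimmer CDC25C probe set stood at 0.14 (adjusted p = 0.208), and with all probe sets averaged the gene was at -0.15 (adjusted p = 0.0599). PLK1, the polo kinase that drives mitotic progression, rose. It was at 0.14, 0.11 and 0.07 in SDC1 siRNA arrays, against -0.14, -0.07 and -0.27 in control siRNA arrays, a change of 0.27 (SE 0.069, adjusted p = 0.0199; 0.27 and 0.23 within the sets).

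The catalytic core of mitotic entry did not pass the test. CDK1, the kinase itself, was at 0.04, -0.01 and 0.02 after SDC1 siRNA, against -0.02, -0.09 and 0.06 after control siRNA, so the groups overlapped. Its change was 0.04 with a 95% interval from -0.11 to 0.18. The B-type cyclins were at 0.09 for CCNB1 (interval -0.08 to 0.25) and 0.02 for CCNB2 (interval -0.12 to 0.17). The 2 CCNB1 probe sets differed in sign, at -0.13 (adjusted p = 0.24) and 0.30 (adjusted p = 0.0565). AURKA, the kinase of centrosome maturation, was at -0.16 (SE 0.073, adjusted p = 0.149), and PLK4, the kinase of centriole duplication, at -0.14 (SE 0.065, adjusted p = 0.157), with all 3 PLK4 values of the SDC1 siRNA group below those of the control group. FOXM1, a transcription factor for late cell cycle genes, was at 0.03, 0.10 and 0.09, against -0.12, -0.03 and -0.18 in controls. Its groups did not overlap, but the change of 0.18 (SE 0.064, adjusted p = 0.0731) missed the threshold and rested on a probe set of the cross-hybridising kind.

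**Figure D3:**
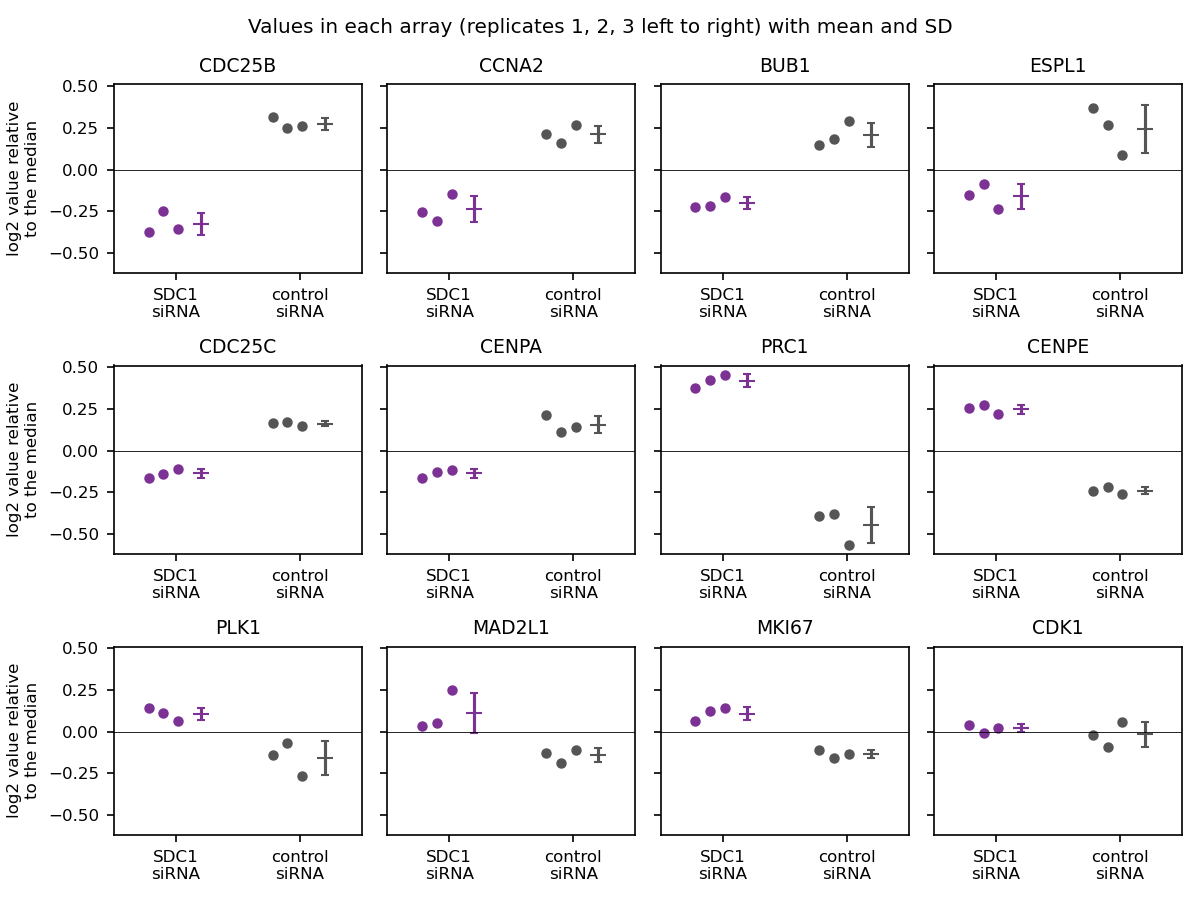
Log2 values relative to the median (y axis) of 12 mitotic genes in each array, with SDC1 siRNA (purple) left of control siRNA (grey), and the mean with its SD beside the 3 points of a group. The groups part for 11 of the 12 genes, but these were picked from the 21 members past the threshold, all of which part. Among all members 24 of 44 (54.5%) part, against 41.8% of all genes and 57.8% of the brightest class. The CDK1 values of both groups lie between -0.09 and 0.06.

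Of 6 genes of the spindle checkpoint and its target, 2 rose, 1 fell and 3 did not pass the test. That is 50% past the threshold, against 28.2% of all genes tested and 41.5% of the brightest class. BUB1, the kinase that recruits other checkpoint proteins to the kinetochore, was at -0.22, -0.22 and -0.16 in SDC1 siRNA arrays, against 0.15, 0.18 and 0.29 in control siRNA arrays. It fell by 0.41 (SE 0.063, adjusted p = 0.00148; -0.37 and -0.40 within the sets), and its bright probe sets gave -0.35 and -0.47. By contrast, MAD2L1, which encodes MAD2, the part of the checkpoint that binds CDC20, was at 0.03, 0.05 and 0.25 after SDC1 siRNA, against -0.13, -0.19 and -0.11 after control siRNA. The third SDC1 siRNA array was well above the other two, and the change was 0.25 (SE 0.074, adjusted p = 0.0329; 0.17 and 0.40 within the sets). BUB3, a scaffold that carries BUB1 and BUBR1 to the kinetochore, was at 0.17, 0.03 and 0.20, against -0.10, -0.14 and -0.05 in controls, and rose by 0.23 (SE 0.068, adjusted p = 0.0349; 0.20 and 0.30 within the sets). The 3 BUB3 probe sets behind that value were at 0.27, 0.20 and 0.22, none of them past the threshold alone (adjusted p = 0.052, 0.111 and 0.0967), and a bright cross-hybridising BUB3 probe set that was not used stood at -0.23 (adjusted p = 0.0722), with groups that did not overlap. The MAD2L1 value was the mean of probe sets at 0.19 and 0.31, and a dimmer MAD2L1 probe set stood at -0.12 (adjusted p = 0.371). With all probe sets averaged neither MAD2L1 (0.13, adjusted p = 0.201) nor BUB3 (0.17, adjusted p = 0.0583) passed. BUB1B, encoding BUBR1, was at 0.16 (adjusted p = 0.184), TTK, encoding the kinase MPS1, at -0.06 (adjusted p = 0.597) and CDC20, the target of the checkpoint, at 0.09 (interval -0.05 to 0.23).

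At the kinetochore the largest change was a gain of CENPE, the motor that carries chromosomes to the spindle equator. CENPE was at 0.25, 0.27 and 0.22 in the SDC1 siRNA arrays, against -0.24, -0.22 and -0.26 in the control siRNA arrays. The 3 arrays of each group lay close together, and the change was 0.49 (SE 0.056, adjusted p = 0.000296; 0.51 and 0.46 within the sets), 1.40-fold. CENPA, the histone H3 variant that marks the centromere, was at -0.16, -0.13 and -0.11 after SDC1 siRNA, against 0.21, 0.11 and 0.14 after control siRNA. It fell by 0.29 (SE 0.058, adjusted p = 0.00594; -0.36 and -0.24 within the sets), on a cross-hybridising probe set, the one that the annotation ties to CENPA alone. The NDC80 complex, the microtubule clamp of the kinetochore, has 4 subunits, of which NUF2 fell. NUF2 was at -0.10, -0.23 and -0.07, against 0.29, 0.07 and 0.12 in controls, a change of -0.29 (SE 0.078, adjusted p = 0.0234; -0.45 and -0.16 within the sets). Its partners NDC80, SPC24 and SPC25 were at -0.08, 0.00 and 0.04, with intervals between -0.27 and 0.21. The inner kinetochore gene CENPN was at 0.00 (interval -0.15 to 0.15). CENPF, a large protein of the outer kinetochore, was at -0.03 (SE 0.115), the widest error of the members, and its probe sets disagreed at -0.35 (adjusted p = 0.00858), 0.07 (adjusted p = 0.896) and 0.18 (adjusted p = 0.182).

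**Figure D4:**
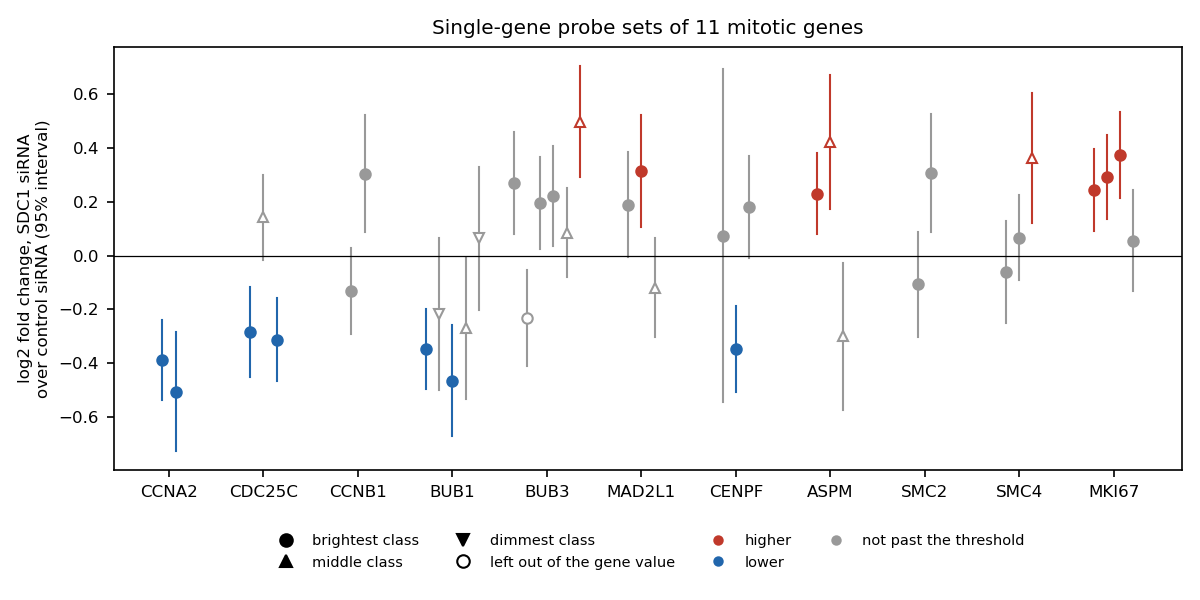
Log2 fold change (y axis, SDC1 siRNA over control siRNA, with 95% interval) of each single-gene probe set of 11 mitotic genes. Filled symbols entered the gene value and open ones did not. Probe sets of CCNA2 and of MKI67 agree in direction, and those of each other gene shown lie on both sides of 0. In CDC25C, BUB1, BUB3, MAD2L1 and ASPM the opposing probe set did not enter the gene value.

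The chromosomal passenger complex corrects wrong attachments through the kinase Aurora B. Its targeting subunit borealin, encoded by CDCA8, was at -0.11, -0.04 and -0.14 in SDC1 siRNA arrays, against 0.14, 0.24 and 0.04 in control siRNA arrays, a change of -0.24 (SE 0.069, adjusted p = 0.0317; -0.22 and -0.28 within the sets). The kinase AURKB was at -0.11 (interval -0.29 to 0.06), the scaffold INCENP at 0.08 (interval -0.08 to 0.24) and BIRC5, encoding survivin, at -0.03 (interval -0.16 to 0.11). The 4 single-gene BIRC5 probe sets ran from -0.05 to 0.00. In this complex, then, 1 of 4 genes passed the test (25%), against 28.2% of all genes tested and 41.5% of the brightest class.

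Spindle and cytokinesis genes held the largest change of the whole group. PRC1, which bundles the antiparallel microtubules of the central spindle, was at 0.38, 0.43 and 0.46 in the SDC1 siRNA arrays, against -0.39, -0.38 and -0.57 in the control siRNA arrays. The lowest value after SDC1 siRNA was well above 0 and the highest control value well below it. PRC1 rose by 0.87 (SE 0.070, adjusted p = 5.36e-05; 0.79 and 0.93 within the sets), 1.82-fold, on its single probe set. Anillin, encoded by ANLN and a scaffold of the contractile ring, was at 0.17, 0.01 and 0.24, against -0.17, -0.18 and -0.01 in controls, a change of 0.26 (SE 0.080, adjusted p = 0.0408; 0.26 and 0.34 within the sets). The second SDC1 siRNA array and the third control siRNA array nearly met, at 0.01 and -0.01. ASPM, a spindle pole protein, rose by 0.23 (SE 0.056, adjusted p = 0.0145), although it was at 0.12 (adjusted p = 0.274) with all probe sets averaged. Its dimmer probe sets stood at 0.42 (adjusted p = 0.026) and -0.30 (adjusted p = 0.125).

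In the same group 4 genes of spindle assembly fell, by less than CDC25B or BUB1. With the 3 that rose, 87.5% of the 8 genes passed, against 28.2% of all genes tested and 41.5% of the brightest class. HMMR, a spindle protein that also binds hyaluronan, was at -0.07, -0.13 and -0.15 after SDC1 siRNA, against 0.21, 0.10 and 0.18 after control siRNA, and fell by 0.28 (SE 0.061, adjusted p = 0.00862; -0.32 and -0.29 within the sets). DLGAP5, which stabilises kinetochore fibres, was at -0.09, -0.12 and -0.13, against 0.15, 0.13 and 0.09 in controls, a change of -0.24 (SE 0.056, adjusted p = 0.0136; -0.26 and -0.24 within the sets). TPX2, the activator of Aurora A on the spindle, fell by 0.20 (adjusted p = 0.0285), and TACC3, a fibre protein that Aurora A phosphorylates, by 0.22 (adjusted p = 0.0451). With the spike-in set as a block both missed the threshold, at an adjusted p of 0.0544 for TPX2 and 0.0822 for TACC3. NUSAP1, a microtubule bundling protein, was at 0.14 (adjusted p = 0.131).

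Both genes of the switch that opens anaphase were lower. The share of lower genes was 15.2% over all genes tested and 23.3% in the brightest class. ESPL1, encoding separase, the protease that cuts cohesin, was at -0.15, -0.09 and -0.24 in SDC1 siRNA arrays, against 0.37, 0.27 and 0.09 in control siRNA arrays. The control values were spread more widely than those after silencing, and ESPL1 fell by 0.40 (SE 0.084, adjusted p = 0.00736; -0.49 and -0.41 within the sets), with its probe sets at -0.39 and -0.41. PTTG1, encoding securin, the inhibitor of separase, was at -0.13, -0.04 and -0.17, against 0.15, 0.13 and 0.04 in controls, and fell by 0.22 (SE 0.065, adjusted p = 0.0381; -0.23 and -0.26 within the sets). Its value comes from a cross-hybridising probe set, and PTTG1 has close copies in the human genome, so it is uncertain which transcript was read.

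Of 6 genes of chromosome structure, 1 rose and 5 did not pass the test. That is 16.7% past the threshold, against 28.2% of all genes tested and 41.5% of the brightest class. TOP2A, the topoisomerase that untangles sister chromatids, was at -0.01, 0.00 and 0.03 after SDC1 siRNA, against -0.03, -0.03 and 0.03 after control siRNA, a change of 0.01 (interval -0.12 to 0.14). The condensin subunits NCAPG, NCAPH, SMC2 and SMC4 were at -0.02, 0.01, 0.10 and 0.00, and none of them passed the test. The SMC2 value was the mean of probe sets at -0.11 and 0.31. The SMC4 value was the mean of probe sets at -0.06 and 0.07. A dimmer cross-hybridising SMC4 probe set that was not used stood at 0.36 (adjusted p = 0.0439). MKI67, encoding the proliferation antigen Ki-67 that coats mitotic chromosomes, was at 0.07, 0.12 and 0.14, against -0.11, -0.16 and -0.13 in controls, and rose by 0.24 (SE 0.057, adjusted p = 0.0129; 0.20 and 0.28 within the sets). The 4 MKI67 probe sets gave 0.24, 0.29, 0.37 and 0.06, the last with an adjusted p of 0.715.

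For the 23 members that did not pass the test, estimates ran from -0.16 for AURKA to 0.18 for FOXM1. The 95% intervals of 20 of them lay within 0.3 of 0 on the log2 scale, and the widest bounds were -0.33 and 0.34. Changes within a gene's own interval are compatible with its arrays, so a missed threshold does not show that the gene was unaltered. Among the 21 that did pass, 11 also passed in each of the 6 fits that left out 1 array (52.4%, against 70.5% of all called genes). These were CCNA2, CDC25B, CDC25C, BUB1, CENPA, CENPE, PRC1, DLGAP5, HMMR, ESPL1 and MKI67. The other 10 lost the call in at least 1 such fit without a change of sign. TACC3 (up to adjusted p = 0.15, at -0.18), CDCA8 (0.104, at -0.19) and MAD2L1 (0.0985, at 0.23) passed in 1 of the 6 fits. TACC3 and CDCA8 passed only without control replicate 3, and MAD2L1 only without SDC1 siRNA replicate 1. BUB3 (adjusted p up to 0.11), ANLN (0.121), TPX2 (0.0966) and PTTG1 (0.109) passed in 2 fits, and PLK1 (0.0696), NUF2 (0.0847) and ASPM (0.054) in 3. Leaving out SDC1 siRNA replicate 1 cost 9 calls, replicate 2 cost 7 and replicate 3 cost 6, and leaving out control replicates 1, 2 and 3 cost 7, 8 and 3.

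Other mitotic genes were read from 7 lists of 161 genes, none of them members, of which 155 were measured. In these, 26 rose and 34 fell, with a median of 0.00. That is 38.7% in all, against 28.2% of all genes tested and 41.5% of the brightest class. Among 26 regulators of entry and exit 3 rose and 9 fell, led by WEE1, the kinase that inhibits CDK1, at -0.73 (SE 0.084), the stress-induced polo kinase PLK2 at -0.65 and the phosphatase CDC25A at -0.63. So all 3 CDC25 genes, CDC25A, CDC25B and CDC25C, were lower, and WEE1, which they oppose, was lower too. Of 23 genes of the outer kinetochore and checkpoint 4 rose and 3 fell, with the microtubule plus-end protein CLASP1 at 0.59, the dynein adaptor SPDL1 at -0.42, whose dim probe set gave 0.41 (adjusted p = 0.0463) and whose average over both was 0.00 (adjusted p = 0.981), and MAD1L1, the kinetochore partner of MAD2, at -0.40. In the inner centromere network 1 of 16 rose and 5 fell. CENPQ, ITGB3BP and CENPU, which belong to a single subcomplex of that network, were at -0.59, -0.58 and -0.42, with dimmer CENPU probe sets at -0.07. Their partner CENPO, named after its value was seen, was at 0.15 and did not pass.

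The anaphase-promoting complex and related ubiquitin genes had 5 of 22 higher and 5 lower. USP44, a deubiquitinase of the checkpoint, was at -1.18 (SE 0.092, adjusted p = 4.46e-05), FBXW7, the receptor of a ligase for cyclin E, at -1.03 (SE 0.076) and ANAPC15, a subunit that helps release the checkpoint complex, at 0.68. Of 18 cohesin and condensin genes 2 rose and 1 fell. That is 16.7% in all, against 28.2% of all genes tested and 41.5% of the brightest class, which holds 17 of the 18. There the 2 forms of one cohesin subunit moved apart, STAG2 at 0.39 and STAG1 at -0.32, and the core subunit SMC3 was at 0.21. The STAG1 call was lost without SDC1 siRNA replicate 2 (adjusted p = 0.0652) and without control replicates 1 (0.0567) or 3 (0.0592), and SMC3 passed in 1 of the 6 fits that left out an array (adjusted p up to 0.0966). Genes of the spindle, cytokinesis and midbody had 4 of 32 higher and 7 lower. The centrosomal protein TACC2 was at 0.98, FAM83D, which targets a kinase to the spindle, at 0.63 and the microtubule end-binding protein MAPRE2 at -0.49. Dimmer TACC2 probe sets stood at 0.11 (adjusted p = 0.516) and 0.20 (adjusted p = 0.332). Dimmer MAPRE2 probe sets stood at -0.12 (adjusted p = 0.29) and -0.10 (adjusted p = 0.491). Of 18 genes of the DREAM, MuvB and E2F transcription machinery 7 rose and 4 fell, with a median of 0.13. That is 61.1% in all, against 28.2% of all genes tested and 41.5% of the brightest class, which holds 17 of the 18. The atypical repressors E2F7 and E2F8 moved apart at -0.59 (SE 0.068) and 0.60 (SE 0.091). TFDP1, the partner of E2F factors, was at 0.39 as the mean of probe sets at 0.04, 0.08 and 1.04.

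**Figure D5:**
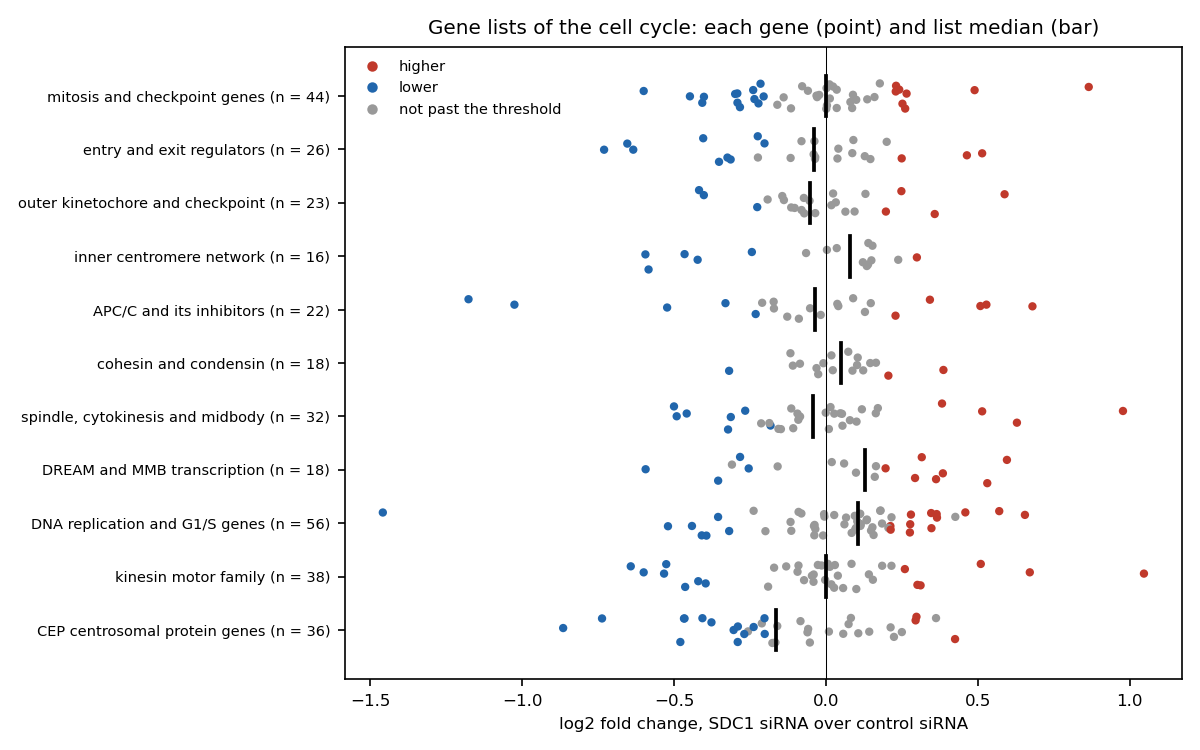
Log2 fold change (x axis, SDC1 siRNA over control siRNA) of each gene (point) in the mitotic group, 7 other mitotic lists and 3 related groups, with the list median as a bar. Medians lie between -0.16 for CEP genes and 0.13 for the DREAM and MuvB list, and both directions occur in each list.

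Related groups were set beside the mitotic genes as counts, with no test of the differences between lists. The shares past the threshold were 33.9% for the DNA replication and G1/S list, 34.2% for kinesins and 47.2% for CEP genes. The backgrounds were 28.2% of all genes tested and 41.5% of the brightest class. The DNA replication and G1/S list had 12 of 56 higher and 7 lower, with a median of 0.11, against 0.00 for the mitotic genes. It held CDK6, a kinase of G1 phase, at -1.46 (SE 0.057), the helicase subunit GINS2 at 0.66 and the polymerase subunit POLD1 at 0.57. Dimmer GINS2 probe sets stood at 0.11 (adjusted p = 0.416) and -0.14 (adjusted p = 0.254). Kinesins had 6 of 38 higher and 7 lower with a median of 0.00, among them the spindle motors KIF11 at 1.05 (SE 0.068) and KIF20A at 0.67, and the transport motor KIF3B at -0.53. CEP centrosome genes had 3 of 36 higher and 14 lower, with a median of -0.16 and with CEP19, CEP135 and CEP250 at -0.86, -0.74 and 0.43. A dim CEP135 probe set stood at -0.02 (adjusted p = 0.944). Dimmer CEP250 probe sets stood at 0.04 (adjusted p = 0.817) and 0.32 (adjusted p = 0.0201). CDKN1A, which encodes the CDK inhibitor p21, whose induction is known to lower late cell cycle genes, was at -1.12 (SE 0.075), with -1.12 and -1.07 within the sets.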

How the data were processed

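RNA from 3 SDC1 siRNA and 3 control siRNA cultures was measured on Affymetrix arrays, and groups were taken from the sample labels. The deposited log2 values were made by the authors with RMA, per the submitters' processing notes, and the values themselves show each of the 54675 probe sets centred on its median over the 6 arrays. The base of the logarithm is 2 as far as the numeric steps of the values show, and the scanner data were not used here. From these values, each probe set was given a brightness class (log2 level 2 to 4, 4 to 8 or 8 to 16) from the numeric step left by single-precision storage on the 3 arrays at or above the median. The platform annotation ties 41097 probe sets to 1 gene, 1801 to several and 11777 to none, and 62 are controls. For a gene, single-gene probe sets of the brightest class it reached were averaged, with cross-hybridising (_x_at) sets used only where no other existed. Groups were compared with limma 3.58.1 in R 4.3.3 over 19775 genes, with Benjamini-Hochberg adjustment and a threshold of 0.05, and the procedure was tested on simulated data. The design states independent replicates, but nothing says what was repeated, so p-values measure the spread between these arrays. The number of arrays limits the precision. The members, lists and tests were chosen with earlier results of these data known, and nothing here is independent support for them. Named genes are SDC1, all members, CDKN1A, the listed cell type markers and the 3 genes of lowest p in each other list, while CENPO was named after its value was seen. Alternatives were other probe set choices, priors, normalizations, filters, blocks by replicate number or spike-in set, each spike-in set alone, and each array left out. Arrays of equal replicate number were not treated as pairs. The correlations of their deviations from the group means were 0.0146, 0.0812 and 0.0998, against -0.118 to 0.0407 for unlike numbers. Correlations this small, from 3 arrays per group, cannot exclude a pairing. Promoter windows are from RefSeq (GRCh38.p14), and AURKA, FOXM1, BUB3, TTK, BIRC5 and TPX2 had none in the table used.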

Additional observations from a re-analysis of the deposited data

How the results depend on the processing

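The counts of 8 higher and 13 lower members were the same without the dimmest class, after quantile normalization and with arrays scaled to one spread. A robust prior with a trend gave 9 and 13, adding FOXM1 (adjusted p = 0.0465). With all probe sets averaged, 5 members were higher and 12 lower, since CDC25C, BUB3, MAD2L1 and ASPM missed the threshold. Tested one probe set at a time, 9 members had a higher and 10 a lower probe set. With the spike-in set as a block the counts were 8 and 11. With replicate number as a block they were 8 and 12, with TACC3 at an adjusted p of 0.0509, and over all genes 2532 higher and 2928 lower. No array pair with equal numbers had a correlation over 0.1, and nothing says that equal numbers mark pairs, so that block is not read as a paired analysis. Within spike-in set 1 alone, 2 members were higher and 3 lower, with a median change of -0.0675, and over all genes 1166 were higher and 1504 lower. Within set 2 alone, 1 member was higher and 1 lower, and over all genes 840 and 1055. These fits use 3 arrays, with the lone array of a group assumed to vary like the others. Leaving out 1 array gave 4 to 6 members higher and 8 to 12 lower, and without control replicate 2 AURKA passed as well. Of 660 member values over 15 alternative fits, 35 changed sign, none of them among members past the threshold. Apart from fits with fewer arrays or other probe sets, the cause of these shifts was not tested. Since values are centred, signal over background could not be read, and a dim probe set is known only by its class.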

Other observations

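CHR letters in promoter windows were rarer in related groups than among the mitotic members, where 28 of 38 windows (73.7%) held them. They were found in 36 of 128 windows of the other mitotic lists (28.1%), 11 of 32 windows of kinesins (34.4%), 12 of 31 of CEP genes (38.7%) and 3 of 49 of the DNA replication and G1/S list (6.12%). Over all genes tested, the letters were in 209 of 2081 windows of genes that rose (10%) and 336 of 2491 of genes that fell (13.5%). Of genes that did not pass the test, 1505 of 10812 windows held them (13.9%). These are counts with no test between groups.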
